A study of Mus musculus with 24 samples.

Results

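Untreated cells of the Ifnar1 knockout clone 2CD7 were compared with untreated WT cells over all expressed genes. The comparison uses 3 libraries of untreated 2CD7 and 3 of untreated WT, which are 6 of the 24 libraries of the series, and 11698 of the 24614 genes in the count table were abundant enough to test. All lines are ID8, a mouse ovarian cancer line, and the labels give every group, WT included, as a double knockout of Trp53 and Brca2. 2CD7 is 1 of 2 clones carrying a CRISPR knockout of Ifnar1, 1CF10 is the other, EV received an empty CRISPR vector, and WT was left untransfected. Each line was also sampled after 3 h with 10000 IU/ml of recombinant mouse interferon beta (IFN beta). The 6 libraries compared here received no interferon, from wells of 50000 cells plated in RPMI medium with 4% serum. Because 2CD7 is a single clone and WT cells did not go through the transfection that the clones and EV did, the loss of Ifnar1, the clone and the procedure cannot be told apart in this comparison. The 3 libraries of a group are technical replicates of 1 date, so all p-values below measure the spread between such libraries and not between independent cultures.

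Type I interferons bind a receptor built of the chains Ifnar1 and Ifnar2, which switches on the kinases Jak1 and Tyk2. These switch on a transcription complex that includes Irf9 and binds interferon-stimulated response elements in the promoters of antiviral genes. Many cells hold such genes at a low level without added interferon, through small amounts of interferon that they make themselves, and Irf7 and Irf9 are themselves among the genes induced.

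The libraries held 2535053 to 2750728 unique molecular identifiers (UMIs, each a counted molecule) in untreated 2CD7 and 1972192 to 2908144 in untreated WT. Mitochondrial genes took 1.2% to 1.47% of UMIs in 2CD7 and 1.47% to 1.74% in WT. Levels are given as CPM, the UMIs of a gene per 1000000 UMIs of its library, and differences as log2 fold changes of 2CD7 over WT ± SE from edgeR. WT library 2, the shallowest, stood apart from the other WT libraries in interferon-inducible genes: 65 antiviral effector genes summed to 911, 946 and 946 CPM in the 2CD7 libraries and to 1200, 1937 and 1395 CPM in the WT libraries. Many results on such genes are therefore also given without that library. Others are given with it only, among them the values of Ifitm3 and Bst2. The labelled cell type was checked on markers of the mesothelial ovarian surface. Krt19, Krt8, Krt18, Msln and Wt1 were counted at 177 to 993 CPM in the 6 libraries, whereas Lrrn4, Krt7, Cdh1 and Bnc1 were at or near 0. Among 10 leukocyte markers, 4 were at 0 in all 6 libraries, Itgam and Cd74 included, and the 10 summed to 10.9 to 14.2 CPM in 2CD7 and 17.2 to 18.3 CPM in WT, mostly Cd14. The 9 endothelial markers, of which Kdr was at 0, summed to 26.5 to 29.98 CPM in 2CD7 and 26.4 to 29.96 CPM in WT.

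Ifnar1 transcripts were counted in both lines. They stood at 8.36, 4.33 and 9.47 CPM in 2CD7, against 8.94, 16.7 and 8.94 CPM in WT, groups that overlap, and the log2 fold change of -0.59 ± 0.27 did not pass the test (edgeR adjusted p = 0.255). Tags primed at the poly(A) tail can come from an edited transcript, so they do not check the knockout. After IFN beta the difference was -1.0 ± 0.25 (edgeR adjusted p = 0.00334), and the change of the difference with treatment did not pass (edgeR adjusted p = 0.759). Ifnar2, the partner chain, had a log2 fold change of -0.28 ± 0.22, Trp53 of 0.02 ± 0.22 and Brca2 of -0.18 ± 0.18 in untreated cells, with edgeR adjusted p of 0.571, 0.981 and 0.694. The sign of the Trp53 and Brca2 values changed under some settings.

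Of the 11698 genes, 170 (1.45%) were higher and 241 (2.06%) lower in untreated 2CD7 than in untreated WT at an edgeR adjusted p below 0.05, 411 or 3.51% in all. A gene past that threshold is called changed in what follows, and rose or fell refers to 2CD7 relative to WT, with sizes on the log2 scale unless a fold is named. Most differences were small: 13 genes rose and 58 fell at least 2-fold, with median log2 fold changes of 0.42 over the called higher genes and -0.59 over the called lower genes. The 3 libraries of one line lay outside those of the other for 167 of the 170 and 235 of the 241. Over all 11698 tested genes, the 2CD7 libraries were all higher for 1202 (10.3%) and all lower for 1366 (11.7%). The calls come from the same libraries, so the separation of called genes adds no support to them. Genes that fell furthest were interferon-inducible genes and a set of genes nearly silent in 2CD7, while the genes that rose, such as Fosl1, Myc, Ccnd1 and Gnl3, did so by less. In bulk RNA, fewer cells with a transcript and less of it per cell cannot be told apart. The counts of higher and lower genes were 80 and 96 without 2CD7 library 1, 138 and 139 without 2CD7 library 2, 148 and 150 without 2CD7 library 3, 105 and 130 without WT library 2, 67 and 100 without WT library 3, and 127 and 128 by DESeq2.

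**Figure D1:**
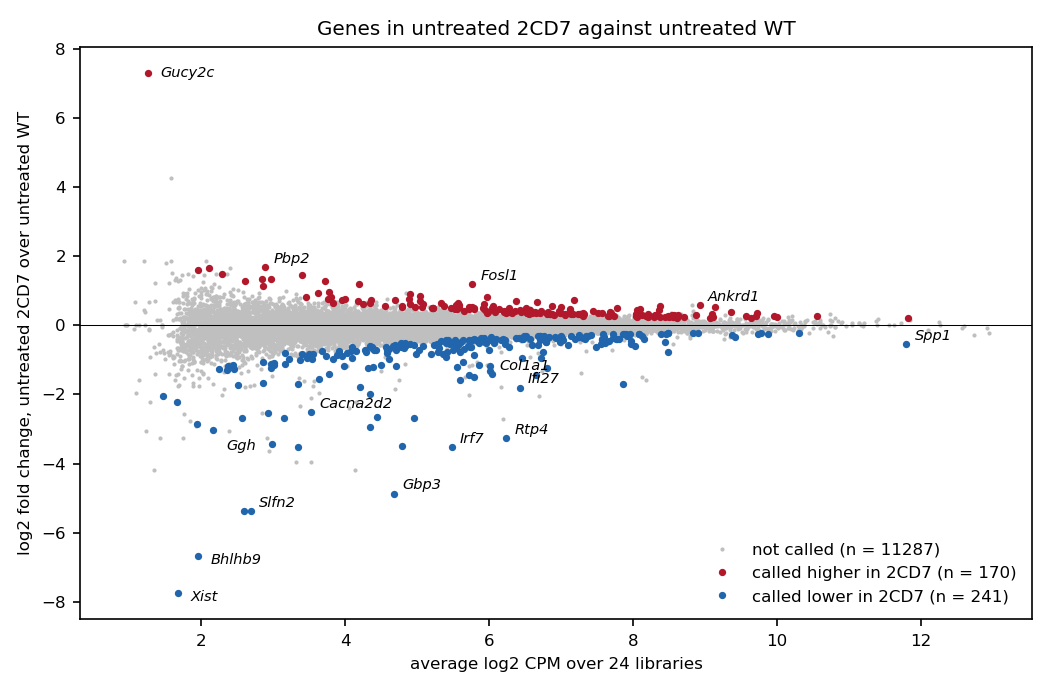
Each point is a gene, placed by its average log2 CPM over 24 libraries (x axis) and its log2 fold change of untreated 2CD7 over untreated WT from edgeR (y axis). Red points (n = 170) were called higher and blue points (n = 241) lower in 2CD7, and grey points were not called. For genes at 0 UMIs in 1 of the lines, such as Gucy2c, Xist and Bhlhb9, the plotted value depends on the fit and is no estimate of size.

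The starkest differences were genes counted in 1 of the 2 lines and not in the other. Gucy2c, which encodes guanylate cyclase C, the intestinal receptor for guanylin peptides (chromosome 6, 136697284 to 136781765, minus strand of GRCm38), had 6.54, 9.05 and 7.49 CPM in untreated 2CD7 and 0 CPM in each untreated WT library. That is 60 UMIs against 0, or at least 18.2-fold higher against a floor of 3 UMIs over the WT group. It was thus present in the clone and not detected in its control at this depth. With IFN beta, 2CD7 libraries held 2.16, 7.09 and 5.90 CPM, while the untreated 1CF10, untreated EV and treated WT libraries were at 0. Gucy2c was called higher in untreated 2CD7 than in EV (edgeR adjusted p = 6.23e-08) and than in 1CF10 (1.43e-08).

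Xist, the noncoding RNA that coats and silences an X chromosome (chromosome X, 103460366 to 103483254, minus strand), was the opposite case. No Xist UMI was counted in untreated 2CD7, against 9.84, 7.61 and 13.1 CPM or 75 UMIs in untreated WT, at least 27.5-fold lower in 2CD7. Xist was at 0, 0 and 0 CPM in untreated EV and 0, 0.715 and 0 CPM in untreated 1CF10 too, so WT is the line that differs from the other 3 in this gene, and 2CD7 was called different from neither EV nor 1CF10 (edgeR adjusted p = 1.00 and 0.367). Over chromosome X as a whole, 4 of 424 tested genes rose (0.943%) and 10 fell (2.36%), shares near those of all genes.

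Bhlhb9, a gene of the GPCR-associated sorting protein family (chromosome X, 135797594 to 135891081, plus strand), behaved differently from Xist. It had 0 CPM in all untreated 2CD7 libraries, against 6.26, 2.03 and 5.85 CPM in untreated WT (35 UMIs, at least 12.8-fold lower in 2CD7). The untreated 1CF10 libraries held 2.16, 5.72 and 3.87 CPM and the EV libraries 3.21, 2.43 and 3.25 CPM, and 2CD7 was called lower than either (edgeR adjusted p = 8.01e-06 and 0.000171). Rorb, an orphan nuclear receptor gene, was likewise lowest in 2CD7, with 1.09, 0 and 0.394 CPM in 2CD7 and 2.68, 7.61 and 3.78 CPM in WT, without overlap. Its log2 fold change was -3.03 ± 0.62 against WT (edgeR adjusted p = 0.00137), -3.21 ± 0.59 against 1CF10 and -3.82 ± 0.55 against EV, all called.

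Other genes that were nearly silent in 2CD7 were low in the sister clone or in EV as well. Ggh encodes gamma-glutamyl hydrolase, which trims folates in the lysosome (chromosome 4, 20042052 to 20066750, plus strand). It stood at 0.727, 2.36 and 0.789 CPM in untreated 2CD7 and 17.4, 14.2 and 11.3 CPM in untreated WT, groups far apart, with a log2 fold change of -3.42 ± 0.37 (edgeR adjusted p = 8.79e-10). Cacna2d2, an auxiliary subunit of voltage-gated calcium channels (chromosome 9, 107399612 to 107529343, plus strand), had 4.36, 3.54 and 2.37 CPM in 2CD7 and 17.9, 18.3 and 22.4 CPM in WT, a log2 fold change of -2.50 ± 0.27 (edgeR adjusted p = 8.79e-10). Both genes were low in 1CF10 too, at 2.16, 2.50 and 1.94 CPM for Ggh and 4.76, 3.22 and 3.87 CPM for Cacna2d2, and 2CD7 did not differ from 1CF10 by the test (edgeR adjusted p = 0.439 and 0.860). Fkbp11, a peptidyl-prolyl isomerase of the endoplasmic reticulum, shared its low level with EV instead: 1.82, 0.787 and 1.18 CPM in 2CD7, 8.66, 13.2 and 13.6 CPM in 1CF10, 0, 0 and 1.63 CPM in EV and 8.50, 9.63 and 7.56 CPM in WT. Zfp618, a zinc finger gene, fell by 2.67 on the log2 scale, and its 2CD7 libraries (4.00, 2.36 and 1.97 CPM) lay below those of WT (10.3, 19.8 and 23.4 CPM) but were not called different from EV or 1CF10.

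**Figure D2:**
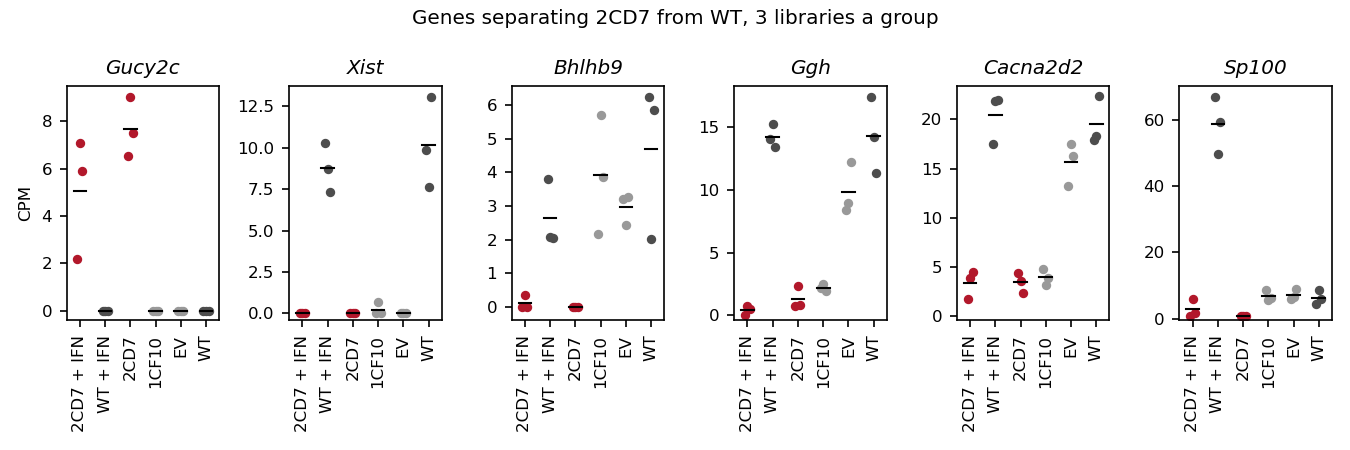
Each panel shows CPM (y axis) of a gene in treated 2CD7 and WT and in untreated 2CD7, 1CF10, EV and WT, with a point per library (red in 2CD7, dark grey in WT, light grey in 1CF10 and EV) and a bar at the mean of 3. Gucy2c was counted in 2CD7 alone, Xist in WT and in 1 library of 1CF10, Bhlhb9 was at 0 in untreated 2CD7, Ggh and Cacna2d2 were low in both clones, and Sp100 was low in untreated 2CD7 and high in treated WT.

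Interferon-inducible genes were lower in untreated 2CD7, although no interferon had been added to either line. Of 118 tested members of the 4 lists of antiviral effectors, interferon-inducible GTPases, nucleic acid sensors and class I antigen presentation genes, 27 fell, against 2.06% of all genes. Their median log2 fold change was -0.88, against -0.02 over all genes. Without WT library 2, 13 fell and the median was -0.54, and without 2CD7 library 1, 15 fell. The transcription factors Irf7 and Irf9 were among the larger differences. Irf7, the factor that drives interferon alpha genes (chromosome 7, 141262706 to 141266481, minus strand), had 0.364, 1.57 and 0.789 CPM in 2CD7 and 4.47, 21.3 and 8.25 CPM in WT. The groups did not overlap, and the log2 fold change was -3.52 ± 0.79 (edgeR adjusted p = 0.0184), or -2.81 without WT library 2. The Irf7 call was lost without 2CD7 library 1 or 3.

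Irf9, the DNA-binding part of that complex (chromosome 14, 55603571 to 55610030, plus strand), stood at 2.54, 1.57 and 1.97 CPM in 2CD7 and 8.05, 22.3 and 10.7 CPM in WT. Its log2 fold change was -2.66 ± 0.36 (edgeR adjusted p = 1.13e-06), and -2.18 without WT library 2. Among 26 tested signalling genes, Stat3 also fell (-0.38 ± 0.11, edgeR adjusted p = 0.0444) and Ptpn6, the phosphatase SHP-1 that restrains cytokine receptors, rose (1.27 ± 0.33, edgeR adjusted p = 0.0172). The Stat3 call was lost without any 1 of the 6 libraries, and that of Ptpn6 without 2CD7 library 2 or WT library 1 or 3. Usp18, a negative regulator of the receptor, had a log2 fold change of -1.79 and did not pass (edgeR adjusted p = 0.328). Ptpn6 stood at 8.00, 9.44 and 8.28 CPM in 2CD7 and 3.13, 3.55 and 3.78 CPM in WT.

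Of 59 tested antiviral effectors, 15 fell and 44 did not pass, with a median log2 fold change of -1.05 (-1.01 with absent genes set at their bound), and 9 fell without WT library 2. The smallest adjusted p was that of Ifi27, a small membrane protein gene (chromosome 12, 103434211 to 103440239, plus strand), with 30.9, 33.4 and 36.3 CPM in 2CD7 and 104, 139 and 108 CPM in WT. Its log2 fold change was -1.80 ± 0.13 (edgeR adjusted p = 2.46e-13), or -1.65 without WT library 2. The related gene Ifi27l2a had 1.45, 1.18 and 1.18 CPM in 2CD7 and 6.26, 7.61 and 8.94 CPM in WT, a log2 fold change of -2.55 ± 0.42 (edgeR adjusted p = 4.28e-05). Without WT library 2 the value of Ifi27l2a was -2.55. With IFN beta, Ifi27 rose by 0.40 and Ifi27l2a by 1.08 in WT, both called. In EV their changes were -0.13 and 0.05, and neither passed (edgeR adjusted p = 0.662 and 0.971). Sp100, a component of antiviral nuclear bodies (chromosome 1, 85649988 to 85709998, plus strand), had 0.727, 0.787 and 0.789 CPM in 2CD7 and 4.47, 8.62 and 5.85 CPM in WT. Its log2 fold change was -2.94 ± 0.52 (edgeR adjusted p = 0.000142), and it was lower than in 1CF10 (-3.03 ± 0.50) and than in EV (-3.15 ± 0.50) as well.

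In other effectors WT library 2 stood above its group. Rtp4, a transporter protein gene with antiviral activity, had 3.27, 0.787 and 0.789 CPM in 2CD7 and 6.71, 34.0 and 11 CPM in WT, where library 2 stood well above the others. Its log2 fold change was -3.25 ± 0.74 (edgeR adjusted p = 0.0220), and the call was lost without that library or 2CD7 library 2 or 3. Ifitm3, which blocks virus entry, had 41.1, 46.0 and 43.4 CPM in 2CD7 and 87.7, 241 and 106 CPM in WT, a log2 fold change of -1.71 ± 0.32 (edgeR adjusted p = 0.00551). Bst2, the tether of budding virions, had 12.4, 8.65 and 13.4 CPM in 2CD7 and 21.9, 57.8 and 27.9 CPM in WT, again highest in WT library 2. Ifitm3 and Bst2 are 2 of 10 called effectors named here after their values were seen, with Isg20, Ifi35, Parp9, Dtx3l, Slfn9, Lgals3bp, Shisa5 and Tor3a, whose log2 fold changes ran from -1.22 to -0.40. Slfn2, which controls T cell quiescence, was at 0 UMIs in 2CD7 and at 14 in WT, at least 5.13-fold lower in 2CD7. Trim12c and Apol9a, outside the list, fell too: Trim12c was at 0 UMIs in 2CD7 and 14 in WT, a call lost without WT library 2 or any 1 of the 2CD7 libraries, and Apol9a had a log2 fold change of -2.69 ± 0.49 (edgeR adjusted p = 0.000725). Oas1a, a sensor enzyme of double-stranded RNA that did not pass (edgeR adjusted p = 0.0519), had 0.364, 0 and 0 CPM in 2CD7 and 0.894, 6.59 and 1.38 CPM in WT.

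Among 16 tested GTPases of the guanylate-binding and immunity-related families, 3 fell. The calls of Gbp2 and Gbp3 were lost without WT library 2 or any 1 of the 2CD7 libraries, that of Gbp3 also with the replicate block, and that of Gvin1 without WT library 2 or 2CD7 library 1 or 2. Gbp3 had 1 UMI in untreated 2CD7 and 36 in untreated WT, a ratio 39.6-fold lower in 2CD7 (95% counting interval 6.67 to 1607). Gvin1 had 3 UMIs in 2CD7 and 34 in WT, 12.5-fold lower in 2CD7 (3.92 to 63.4). Gbp2 had 5.09, 3.93 and 4.73 CPM in 2CD7 and 8.94, 19.3 and 6.53 CPM in WT, a log2 fold change of -1.24 ± 0.33 (edgeR adjusted p = 0.0282) and -0.71 without WT library 2. These families hold near-identical copies, so single values are uncertain. Of 22 tested nucleic acid sensors, 7 fell, 4 of them without WT library 2. Ifih1, the long double-stranded RNA sensor MDA5 (chromosome 2, 62595798 to 62646255, minus strand), had 5.09, 7.87 and 5.13 CPM in 2CD7 and 12.5, 24.8 and 14.8 CPM in WT, a log2 fold change of -1.49 ± 0.31 (edgeR adjusted p = 0.00460) and -1.18 without WT library 2. Ddx58, which encodes the RNA sensor RIG-I, had a log2 fold change of -0.78, and the Ifi200 family genes Mndal, Ifi203, Ifi204 and Ifi205 had log2 fold changes of -1.43, -1.42, -1.32 and -0.95. The Ifi200 genes resemble each other, and Mndal and Ifi203 overlap in the annotation, so how reads split among them is uncertain. Tlr3, an endosomal RNA sensor gene, had 1 UMI in 2CD7 and 14 in WT, with groups that overlapped. Among the sensors described, Ifih1 was called with any library left out, whereas Mndal, Ifi203 and Tlr3 were not.

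In class I antigen presentation 2 of 21 tested genes fell, with a list median of -0.30. B2m, the light chain of all class I molecules (chromosome 2, 122147686 to 122153083, plus strand), had 434, 455 and 478 CPM in 2CD7 and 521, 632 and 556 CPM in WT. The groups were apart by little, and the log2 fold change was -0.33 ± 0.07 (edgeR adjusted p = 0.00214), or -0.23 and no longer called without WT library 2. The nonclassical class I gene H2-T23 had a log2 fold change of -0.70 ± 0.20 (edgeR adjusted p = 0.0283) and overlapping groups. The other 19 members did not pass. The B2m call was also lost without 2CD7 library 1, and that of H2-T23 without 2CD7 library 1 or 2 or WT library 2 or 3. Of 6 tested checkpoint ligands, Lgals9 fell (-0.54 ± 0.11, edgeR adjusted p = 0.00498), as did Cd47, the do-not-eat-me signal (-0.24 ± 0.07, edgeR adjusted p = 0.0342), a call lost without any 1 of the 6 libraries. Cd274, which encodes PD-L1, had a log2 fold change of -1.19 and did not pass (edgeR adjusted p = 0.335).

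**Figure D3:**
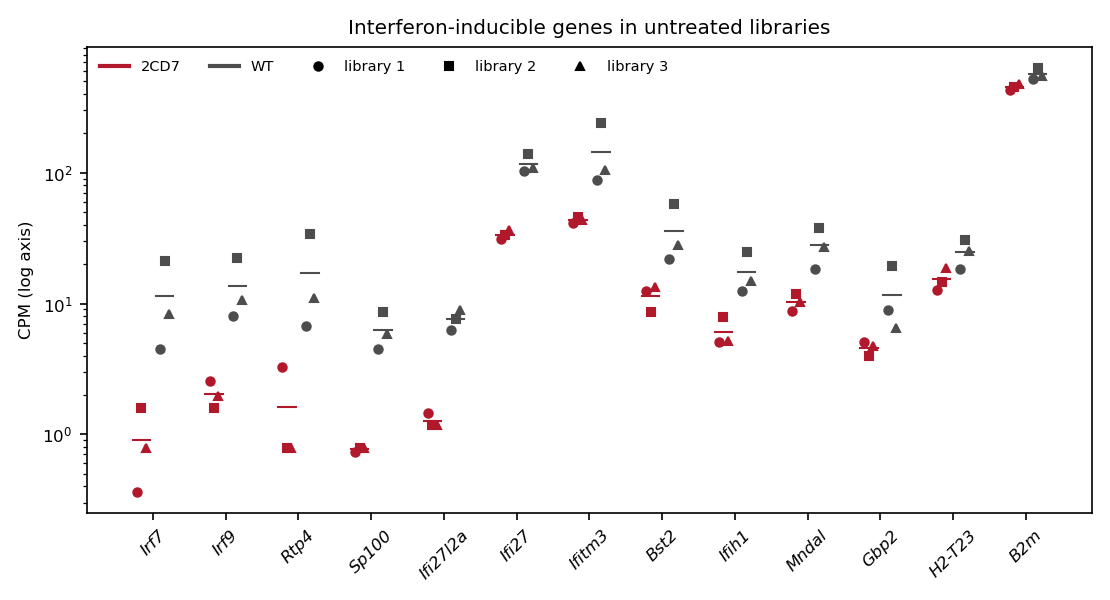
CPM on a log axis (y) of 13 interferon-inducible genes (x) in the 3 untreated 2CD7 libraries (red) and the 3 untreated WT libraries (grey), with symbols for libraries 1 to 3 and a bar at the mean. The 2CD7 libraries lie below the WT libraries for each gene shown but H2-T23, and the WT square, library 2, is the highest of the WT points for most genes, though not for Ifi27l2a.

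The promoters of the interferon-inducible genes were searched for the core of the interferon-stimulated response element, which describes their sequence and not binding. The core was taken as 2 GAAA blocks with any 2 bases (NN) between them, or 2 TTTC blocks where it lies on the other strand, from 250 bases before to 50 after each gene start in the RefSeq table of GRCm38.p6. Of the 27 list members that fell, 20 have a promoter in that table and 13 of these (65%) hold the core, against 30 of 69 (43.5%) of the other tested members of the 4 lists. The share was 303 of 8163 (3.71%) over tested genes and 1131 of 32851 (3.44%) over all promoters in the table. The 4 promoters below belong to the called members with the core that had the smallest edgeR adjusted p. They are printed 5′ to 3′ along the transcript with the core in capitals, since all 4 genes fell in 2CD7 and the position of the core differs among them. Counted from the gene start, the core of B2m begins at position -139 and that of Slfn9 at -45. Ifi205 holds 2 cores, at -134 and 24, and in Ifih1 the core lies at 33, past the start of transcription.
B2m (chr2:122147437-122147736, plus strand): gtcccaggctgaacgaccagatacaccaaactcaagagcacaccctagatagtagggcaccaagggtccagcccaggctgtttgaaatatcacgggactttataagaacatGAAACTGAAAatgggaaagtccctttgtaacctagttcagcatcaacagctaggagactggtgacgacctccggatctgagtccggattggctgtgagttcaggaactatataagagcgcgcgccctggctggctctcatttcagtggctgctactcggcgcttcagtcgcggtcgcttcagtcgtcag
Ifi205 (chr1:174031706-174032005, minus strand): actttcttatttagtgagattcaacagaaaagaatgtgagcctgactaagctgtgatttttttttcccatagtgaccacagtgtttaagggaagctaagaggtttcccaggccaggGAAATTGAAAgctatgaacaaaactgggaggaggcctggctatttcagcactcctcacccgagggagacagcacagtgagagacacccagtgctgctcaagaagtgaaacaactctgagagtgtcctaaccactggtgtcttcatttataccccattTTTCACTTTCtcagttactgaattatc
Slfn9 (chr11:82991781-82992080, minus strand): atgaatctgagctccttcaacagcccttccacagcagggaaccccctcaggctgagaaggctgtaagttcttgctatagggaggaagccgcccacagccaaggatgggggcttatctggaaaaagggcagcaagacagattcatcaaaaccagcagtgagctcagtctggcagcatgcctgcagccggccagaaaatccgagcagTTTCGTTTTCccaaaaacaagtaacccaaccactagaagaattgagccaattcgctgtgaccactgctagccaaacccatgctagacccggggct
Ifih1 (chr2:62646206-62646505, minus strand): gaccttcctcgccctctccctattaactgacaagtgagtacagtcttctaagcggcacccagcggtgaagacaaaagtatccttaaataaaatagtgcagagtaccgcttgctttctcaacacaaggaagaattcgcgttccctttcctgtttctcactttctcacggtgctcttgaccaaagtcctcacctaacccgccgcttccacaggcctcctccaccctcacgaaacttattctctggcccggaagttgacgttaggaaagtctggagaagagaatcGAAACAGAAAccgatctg

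The genes that respond to interferon in ID8 cells were also taken from EV, whose libraries are in neither group compared but share the filter and the fit. IFN beta raised 467 genes in EV (3.99% of tested genes). In untreated 2CD7, 56 of these 467 (12%) were lower than in WT and 10 higher, with a median log2 fold change of -0.17, against 185 of the 11231 other genes lower (1.65%). Among the 132 raised at least 4-fold in EV, 23 fell (17.4%), 113 had a value below 0 and the median was -1.06. The filter used all 24 libraries, so some of the 132 were tested through treated libraries and are near 0 UMIs here. Slfn2 and Trim12c, for example, had 0 UMIs in untreated 2CD7 and 14 in untreated WT. The count below 0 and the median thus rest in part on uncertain values. Their summed level was 518, 546 and 555 CPM in untreated 2CD7 and 727, 1344 and 900 CPM in untreated WT, so every 2CD7 library lay below every WT library. The same sum was 569 to 624 CPM in untreated 1CF10 and 854 to 1182 CPM in untreated EV. WT library 2 had the highest sum of the untreated libraries, and the results on the 132 genes are given only with it. The 56 became 24 without WT library 2, 27 without 2CD7 library 1 and 34 without 2CD7 library 2.

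Outside the interferon genes, Fosl1, Myc, Id1 and Ccnd1 were among the genes that rose. Fosl1, which encodes the AP-1 subunit FRA-1 (chromosome 19, 5447547 to 5455946, plus strand), had 49.1, 34.2 and 46.5 CPM in 2CD7 and 20.1, 19.8 and 17.2 CPM in WT, a log2 fold change of 1.19 ± 0.15 (edgeR adjusted p = 2.29e-07). Myc, the growth-promoting transcription factor gene (chromosome 15, 61985391 to 61990374, plus strand), had 108, 81.8 and 80.9 CPM in 2CD7 and 62.2, 54.8 and 51.9 CPM in WT, a log2 fold change of 0.69 ± 0.12 (edgeR adjusted p = 0.000135). Both genes lay higher in each 2CD7 library than in any WT library. They were 2 of 26 tested immediate early genes that rose, while Zfp36l1, an mRNA decay factor, fell (-0.43 ± 0.12), and the list's median was 0.15. The called members were 11.5% of the list, against 3.51% of all tested genes. The Zfp36l1 call was lost by DESeq2 and without 2CD7 library 1 or 2 or WT library 2 or 3. Id1, an inhibitor of basic helix-loop-helix factors, had 96.0, 98.3 and 120.3 CPM in 2CD7 and 67.5, 67.4 and 59.8 CPM in WT, a log2 fold change of 0.69 ± 0.11 (edgeR adjusted p = 1.71e-05), and its relative Id2 rose by 0.50.

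Ccnd1, cyclin D1 (chromosome 7, 144929931 to 144939925, minus strand), had 703, 612 and 594 CPM in 2CD7 and 463, 452 and 396 CPM in WT, a log2 fold change of 0.54 ± 0.07 (edgeR adjusted p = 9.48e-07). Ccnd2 and the survivin gene Birc5 rose by 0.36 and 0.25, and Cdkn1a, the cell cycle inhibitor p21, by 0.73 with overlapping groups. These were the 4 of 56 tested cell cycle genes that were called, all higher, with a median of 0.10 over the list. They were 7.14% of the list, against 1.45% of all tested genes called higher and 3.51% called either way. Among 26 p53 targets, Plk2 rose (0.73 ± 0.17, edgeR adjusted p = 0.0173) beside Cdkn1a, and Gadd45a (-1.14 ± 0.25, edgeR adjusted p = 0.0105) and Rrm2b (-0.98) fell, although all lines are labelled Trp53 knockouts. Of 27 YAP and TEAD targets, Ankrd1 (0.58 ± 0.13) and Amotl2 (0.49 ± 0.10) rose and Gadd45a fell. The shares called were 15.4% of the p53 list and 11.1% of the YAP and TEAD list, again against 3.51%. The signalling peptide gene Edn1, endothelin-1, had 24.7, 24.4 and 24.9 CPM in 2CD7 and 17.0, 13.2 and 11.3 CPM in WT, a log2 fold change of 0.84 ± 0.18 (edgeR adjusted p = 0.00256). Without WT library 3 the calls of Edn1, Plk2, Ankrd1, Cdkn1a, Gadd45a and Birc5 were lost, and without 2CD7 library 1 those of the last 5, while Fosl1, Myc, Id1, Ccnd1 and Amotl2 were called with any library left out. Plk2, Ankrd1 and Cdkn1a also lost their calls without WT library 2, Gadd45a without 2CD7 library 3 and Cdkn1a by limma-voom. With the libraries thinned to the lowest total, those of Edn1, Plk2 and Cdkn1a were lost. The chemokine gene Ccl2 and the growth factor gene Hbegf rose by 0.32 and 0.49, and Btc, the growth factor betacellulin, fell by 0.39. The calls of Ccl2, Hbegf and Btc were lost without 2CD7 library 1 or WT library 3, those of Ccl2 and Hbegf also without 2CD7 library 3 or WT library 2, and that of Ccl2 without 2CD7 library 2, while that of Rrm2b was lost without any 1 of the 6.

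Other genes rose with a small adjusted p, and no list or test of a shared function stands behind naming them together. Gnl3, nucleostemin of the nucleolus (chromosome 14, 31012433 to 31019152, minus strand), had 283, 269 and 246 CPM in 2CD7 and 196, 188 and 182 CPM in WT, a log2 fold change of 0.49 ± 0.08 (edgeR adjusted p = 1.56e-05). Dkc1, the pseudouridine synthase dyskerin, rose by 0.37, the ribosome assembly factor gene Eif6 by 0.34 and the spermidine synthase gene Srm by 0.44, with edgeR adjusted p of 0.00105 at most. The noncoding RNAs Rpph1, the RNA of RNase P, and Snora73b, a small nucleolar RNA, rose by 1.34 ± 0.28 and 0.81 ± 0.13. Rpph1 stood at 20.0, 12.2 and 11.8 CPM in 2CD7 and 7.60, 5.07 and 4.81 CPM in WT. Hmga1b and Hmga1, which are near-identical copies that could share reads, had 0.55 and 0.49, and Hmga2 had 0.37. These encode DNA-bending chromatin proteins. Ezh1, a histone methyltransferase, fell by 0.63. Jmjd6, a lysyl hydroxylase, and Rassf1, a tumour suppressor gene, rose by 0.46 and 0.53, and Chrnb1, an acetylcholine receptor subunit, by 0.93. The calls of Rpph1, Hmga2 and Ezh1 were lost without 2CD7 library 1, those of Hmga2 and Ezh1 without WT library 3, that of Ezh1 without 2CD7 library 2, and that of Chrnb1 without 2CD7 library 2 or WT library 2.

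Of 33 tested collagens and matrix genes 4 fell and 1 rose, 15.2% called against 3.51% of all genes. Of the 33, 29 had a log2 fold change below 0, as did 6184 of the 11698 genes tested, and the median was -0.27. Col1a1, the main chain of type I collagen (chromosome 11, 94936224 to 94953042, plus strand), had 25.1, 21.2 and 30.4 CPM in 2CD7 and 60.4, 69.5 and 72.6 CPM in WT. The groups were well apart, with a log2 fold change of -1.41 ± 0.15 (edgeR adjusted p = 5.68e-09). Dcn, the collagen-binding proteoglycan decorin (chromosome 10, 97479609 to 97518143, plus strand), had 5.45, 7.87 and 4.73 CPM in 2CD7 and 18.3, 14.7 and 15.1 CPM in WT, a log2 fold change of -1.41 ± 0.26 (edgeR adjusted p = 0.000192). Thbs1, thrombospondin-1, fell by 0.84. Plod2, a collagen lysyl hydroxylase named here after its values were seen, fell by 0.49. P4ha2, a collagen prolyl hydroxylase, rose instead: 11.3, 12.6 and 17.8 CPM in 2CD7 and 5.81, 8.11 and 5.16 CPM in WT, a log2 fold change of 1.14 ± 0.26 (edgeR adjusted p = 0.00532). The P4ha2 call was lost without 2CD7 library 3 or WT library 3. Pcolce2, which speeds procollagen cleavage, rose by 0.91. Prss35, a serine protease-like gene, and Fam180a fell, with log2 fold changes of -1.21 and -1.18 and edgeR adjusted p of 6.52e-06 at most. Of 13 fibroblast and mural markers in the table, 6 were at 0 in all 6 libraries, and their sum was 7.10 to 9.09 CPM in 2CD7 and 18.8 to 22.4 CPM in WT, most of it Dcn itself. Whether other cells had a part in this was not tested.

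Spp1, the secreted phosphoprotein osteopontin (chromosome 5, 104435118 to 104441050, plus strand), was the most abundant of the named genes. It had 2655, 2611 and 2717 CPM in 2CD7 and 3894, 3898 and 3798 CPM in WT, a log2 fold change of -0.54 ± 0.06 (edgeR adjusted p = 8.79e-10), and was also lower than in EV (-0.56 ± 0.06) and in 1CF10 (-0.19 ± 0.06). Adhesion genes went both ways. Of 25 tested, the hyaluronan receptor gene Cd44 (0.42 ± 0.10) and the protocadherin gene Pcdh18 (1.59 ± 0.47) rose, and the syndecan Sdc2 (-0.64 ± 0.15), the integrin chain Itgb3 (-0.62 ± 0.18) and Cd9 and F11r (both named after their values were seen) fell. The Pcdh18 and Itgb3 calls were lost whenever 1 of the 6 libraries was left out. Among 17 markers of the mesothelial surface, Upk1b and Krt18 rose by 0.32 and 0.26, and Wt1 and Aldh1a1 fell, with log2 fold changes of -0.33 and -1.70. Of 25 receptor tyrosine kinases, Fgfr1, a fibroblast growth factor receptor (chromosome 8, 25513654 to 25575718, plus strand), had 4.00, 4.33 and 7.10 CPM in 2CD7 and 16.5, 13.2 and 15.1 CPM in WT, a log2 fold change of -1.55 ± 0.27 (edgeR adjusted p = 8.59e-05). Ddr1, a collagen receptor, fell by 0.44. The calls of Wt1, Krt18, Sdc2 and Cd44 were lost without 2CD7 library 1, those of Wt1, Krt18, Sdc2 and Ddr1 without WT library 3, and those of Wt1 and Ddr1 without 2CD7 library 2 or WT library 2. In the WNT list the receptor gene Fzd6 rose (0.97 ± 0.27) and the ligand gene Wnt6 fell (-0.42 ± 0.09), 2 of 21 (9.52%). Called shares were 24% of the adhesion list, 23.5% of the mesothelial list and 8% of the receptor tyrosine kinases, against 3.51% of all tested genes. The Fzd6 call was lost by limma-voom and without any 1 library but WT library 2, and the Wnt6 call without 2CD7 library 1.

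The retinoid enzymes Aldh1a1, which makes retinoic acid (chromosome 19, 20492715 to 20643465, plus strand), and Dhrs3, which reduces retinal, were the 2 of 15 in their list that were called (13.3%, against 3.51% of all tested genes). Aldh1a1 had 2.91, 7.08 and 7.10 CPM in 2CD7 and 16.1, 19.8 and 19.3 CPM in WT, a log2 fold change of -1.70 ± 0.27 (edgeR adjusted p = 1.85e-05), and Dhrs3 fell by 2.21. Of 34 cholesterol and fatty acid synthesis genes 5 fell: Hmgcs1, the enzyme that makes HMG-CoA (-0.62 ± 0.11, edgeR adjusted p = 0.00128), Scd1, Cyp51, Fads1 and Ebp, with values from -0.42 to -0.24 for the last 4 and a list median of -0.11. The 5 were 14.7% of the list, against 2.06% of all tested genes called lower. With 1 of the 6 libraries left out, 1 to 3 of the list were called, 1 of them without WT library 2. Hmgcs1 was called with any library left out, whereas the calls of Cyp51 and Fads1 were lost without any 1 of the 6. The Scd1 call was lost by DESeq2 and without 2CD7 library 1 or 3 or WT library 2 or 3. Soat1, which esterifies cholesterol, had 202, 192 and 196 CPM in 2CD7 and 274, 291 and 325 CPM in WT, a log2 fold change of -0.60 ± 0.08 (edgeR adjusted p = 2.29e-07). Echdc2, a mitochondrial enoyl-CoA hydratase gene, had 3.27, 6.29 and 7.10 CPM in 2CD7 and 17.4, 19.8 and 19.3 CPM in WT, a log2 fold change of -1.77 ± 0.24 (edgeR adjusted p = 7.78e-07). Ldhb, a subunit of lactate dehydrogenase, fell by 0.86, and the malic enzyme gene Me1 fell by 0.42. Emb, embigin, a partner of lactate transporters, fell by 0.47. On the higher side stood Prodh, proline dehydrogenase (1.33 ± 0.34), Atp6v0e2, a proton pump subunit (1.67 ± 0.39), the urea transporter gene Slc14a1 (1.28 ± 0.35) and the serine and glycine enzymes Psat1 (0.26) and Shmt2 (0.35). The Prodh call was lost without WT library 2, and that of Slc14a1 without 2CD7 library 1 or any 1 of the WT libraries. Pbp2 had the largest log2 fold change among the named higher genes counted in both lines (1.68 ± 0.33), with 10.5, 10.2 and 7.89 CPM in 2CD7 and 3.13, 2.03 and 3.44 CPM in WT.

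In 6 of the lists with at least 5 tested members edgeR called no member: Notch, insulin-like growth factor, imprinted, homeobox and developmental, iron and mitochondrial mRNA genes, 76 tested genes in all. Among them 14 had an unadjusted edgeR p below 0.05, 6 of these in the insulin-like growth factor list. Over all 11698 tested genes, 1874 had such an unadjusted p and 3.51% were called. Of the 76 genes DESeq2 called 0 and limma-voom 1. Under other settings up to 2 members of the insulin-like growth factor list were called lower and 1 higher, and up to 1 each of the Notch, homeobox and mitochondrial lists lower. Homologous recombination and Fanconi genes, of interest in a line labelled Brca2 knockout, had 1 call of 37, Parp1 (-0.30 ± 0.09). Among 29 hypoxia and glycolysis genes Hif1a fell (-0.40 ± 0.09), among 31 lysosome and autophagy genes Map1lc3a and Map1lc3b fell (-0.49 and -0.26), and among 36 cell death genes the death receptor Tnfrsf21 rose (0.62 ± 0.16). Among 36 genes of the unfolded protein and integrated stress responses, Xbp1, a transcription factor of the unfolded protein response, fell (-0.30 ± 0.09) and Psat1 and Shmt2 rose. The Xbp1 call was lost without any 1 of the 6 libraries and by DESeq2 and limma-voom. Me1, a source of NADPH, and Taldo1, transaldolase of the pentose phosphate pathway, fell in the list of 31 NRF2 and glutathione genes, and Taldo1 fell by 0.24. Tnip1, an inhibitor of NF-kB signalling, was the 1 call of 21 NF-kB genes (-0.39 ± 0.08), and Mmp11, stromelysin-3, the 1 call of 16 matrix proteases and inhibitors (-0.58 ± 0.14). Of 25 epithelial-mesenchymal regulators Id1 and Id2 rose and S100a4, a calcium-binding protein gene of motile cells, fell (-0.51 ± 0.11). The called shares were 2.7% for homologous recombination, 2.78% for cell death, 3.45% for hypoxia and 4.76% for NF-kB genes, near the 3.51% of all genes. They were 6.25% for the proteases, 6.45% each for lysosome and NRF2 genes, 8.33% for stress response genes and 12% for epithelial-mesenchymal regulators. The Map1lc3b call was lost without any 1 of the 6 libraries. The calls of Parp1, Hif1a, Taldo1, Tnip1, Mmp11, S100a4 and Psat1 were lost without 2CD7 library 1 or WT library 3, and those of Tnfrsf21, Shmt2 and Map1lc3a without WT library 3. Beyond these libraries, Parp1, Hif1a and Taldo1 also lost their calls without 2CD7 library 3 or WT library 2, Mmp11 and S100a4 without 2CD7 library 3, Taldo1, Psat1, Shmt2 and Map1lc3a without 2CD7 library 2, and Psat1 and Tnfrsf21 without WT library 1.

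**Figure D4:**
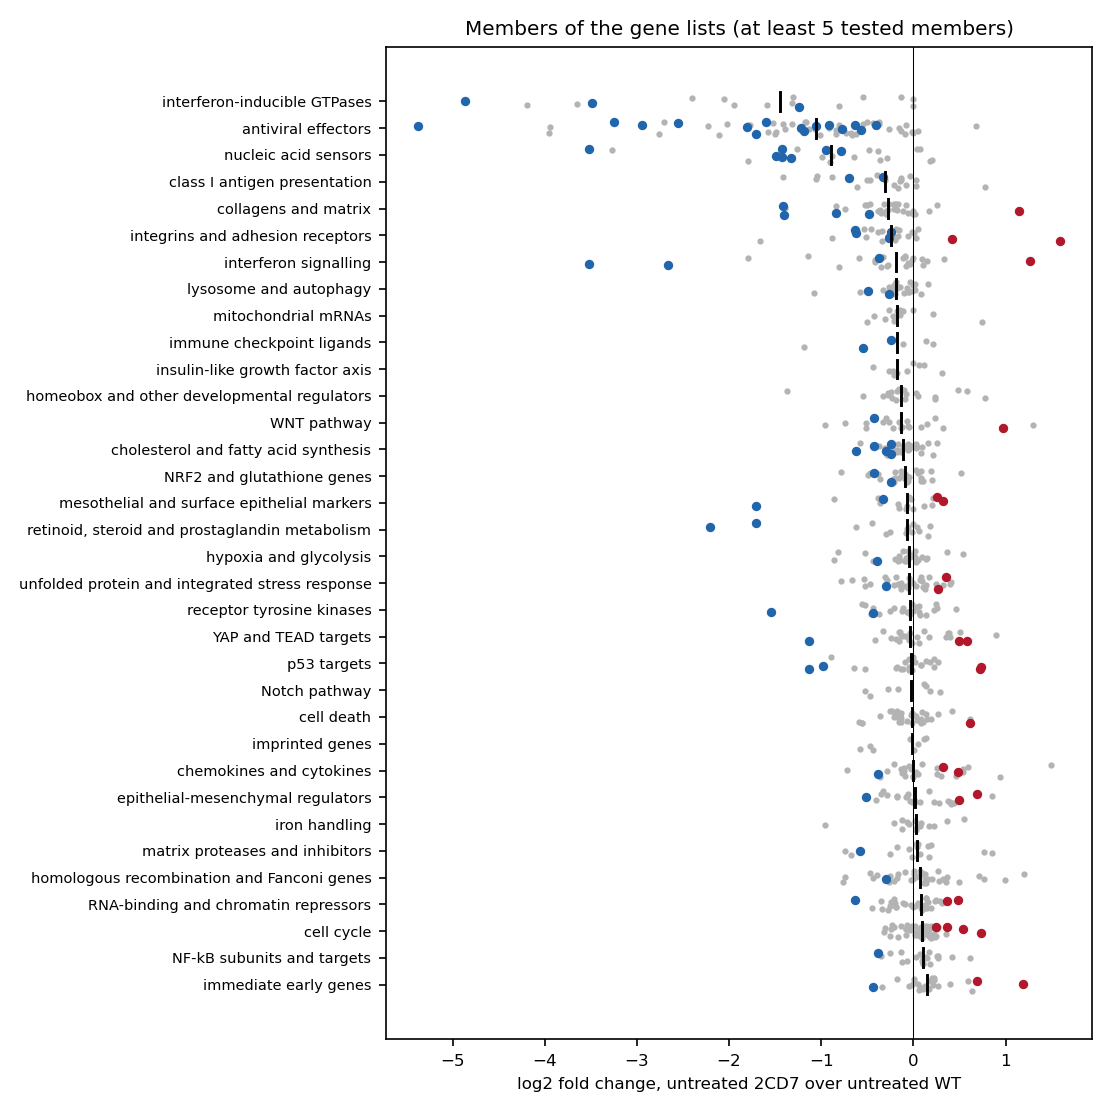
Each row is a gene list with at least 5 tested members, ordered by its median, and each point a member at its log2 fold change of untreated 2CD7 over untreated WT (x axis). Red and blue points were called higher and lower by edgeR, grey points were not called, and the black bar is the median. The top 4 rows are the interferon-inducible GTPases, antiviral effectors, nucleic acid sensors and class I genes, with medians from -1.45 to -0.30, and the lowest row, immediate early genes, has a median of 0.15.

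How far these differences belong to 2CD7 was read from its comparison with the other untreated lines. 2CD7 differed from EV in 1037 genes (8.86%) and from 1CF10 in 1568 (13.4%), each more than from WT. Of the 411 genes called against WT, 55 were also called in the same direction against both EV and 1CF10, 22 higher and 33 lower. The 3 comparisons share the 2CD7 libraries, so this count describes them and adds no independent support. Named genes among the 55 are Gucy2c, Rpph1, P4ha2, Id1 and Gnl3 on the higher side, and Bhlhb9, Rorb, Sp100, Echdc2, Thbs1, Ldhb, Sdc2, Soat1 and Spp1 on the lower. A further 35 genes lay between WT and the other lines, 13 of them higher than in WT yet lower than in both EV and 1CF10. Fosl1 shows this order with 49.1, 34.2 and 46.5 CPM in 2CD7, 93.1, 86.5 and 83.0 CPM in 1CF10, 87.9, 74.6 and 80.1 CPM in EV and 20.1, 19.8 and 17.2 CPM in WT. Its log2 difference was -0.90 ± 0.12 from EV and -0.98 ± 0.12 from 1CF10 (edgeR adjusted p = 6.23e-08 and 2.39e-09). Ankrd1, a YAP target, had 353, 286 and 279 CPM in 2CD7, 822, 887 and 884 CPM in 1CF10, 526, 658 and 564 CPM in EV and 214, 199.8 and 199.8 CPM in WT. Edn1, Plk2, Myc, Cd44, Hbegf, Hmga2, Pcolce2, Tmem171 and Slc14a1 were called in the same order. Another 183 of the 411 were called against neither EV nor 1CF10.

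Of the 59 antiviral effectors, 31 were called lower in untreated 2CD7 than in EV, with a median log2 difference of -1.31, whereas 4 were lower and 1 higher than in 1CF10, with a median of -0.16. Over all 11698 tested genes, 569 were lower in 2CD7 than in EV, and 666 were lower and 902 higher than in 1CF10. Irf7 stood at 1.30, 2.86 and 1.94 CPM in 1CF10 and 10.8, 9.74 and 22.4 CPM in EV, and Irf9 at 3.03, 3.57 and 2.91 CPM in 1CF10 and 17.3, 14.2 and 13.8 CPM in EV. Against WT, the log2 fold change of Irf9 was -2.66 ± 0.36 for 2CD7, -2.07 ± 0.33 for 1CF10 and 0.20 ± 0.24 for EV, comparisons that share the WT libraries. Against 1CF10, 2CD7 had 17 of 34 cholesterol and fatty acid genes higher, 17 of 33 matrix genes lower and 13 of 26 immediate early genes lower, and the difference between these counts and those against WT was not tested.

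The libraries treated with IFN beta give the same line comparison in 6 libraries outside the untreated groups, within the same fit. Treated 2CD7 differed from treated WT in 1638 genes (14%), 695 higher and 943 lower. Of the 411 genes, 320 were not called for IFN beta in WT, and of these 303 had the same sign in the treated libraries and 182 (56.9%) were called in the same direction. Over the 10897 genes not called for IFN beta, 987 (9.06%) were called between treated lines in either direction. Leaving out genes called for IFN beta used both WT groups, so the 182 are not an independent repeat. The median ratio of the treated to the untreated log2 fold change over the 320 genes was 0.78. The 182 became 82 without untreated 2CD7 library 1, 83 without untreated WT library 3 and 103 by DESeq2. The 695 became 451 without treated 2CD7 library 1, 401 without treated WT library 3 and 433 by DESeq2.

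Several line differences had a like size with and without treatment. Cacna2d2 had a log2 fold change of 2CD7 over WT of -2.62 ± 0.27 in treated and -2.50 ± 0.27 in untreated libraries. Fgfr1 had -1.40 ± 0.28 treated and -1.55 ± 0.27 untreated, Fosl1 1.04 ± 0.17 treated and 1.19 ± 0.15 untreated, and Gnl3 0.46 ± 0.08 treated and 0.49 ± 0.08 untreated. Spp1 fell further with treatment, -0.77 ± 0.06 against -0.54 ± 0.06 untreated, a change that did not pass edgeR's test. Others differed more: Dhrs3 had -0.70 ± 0.39 treated and -2.21 ± 0.49 untreated, Rpusd2, a pseudouridine synthase gene, -0.47 ± 0.46 treated and 1.49 ± 0.45 untreated, and Ankrd1 0.00 treated and 0.58 untreated. For these 3 genes neither the treated difference nor its change with treatment passed edgeR's test. The untreated Rpusd2 call was lost by limma-voom and without 2CD7 library 1 or 3 or any 1 of the WT libraries. Of the 91 genes that were called for IFN beta in WT, 50 changed their difference with treatment. Between treated and untreated libraries of the same line, edgeR called 0 genes in 2CD7, 801 in WT and 596 in EV. Ifih1 had -5.23 ± 0.21 treated against -1.49 ± 0.31 untreated, and Gbp2 -6.11 ± 0.17 against -1.24 ± 0.33. Over all genes, 346 (2.96%) changed their 2CD7 to WT difference with treatment, 54 of them among the 411.

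**Figure D5:**
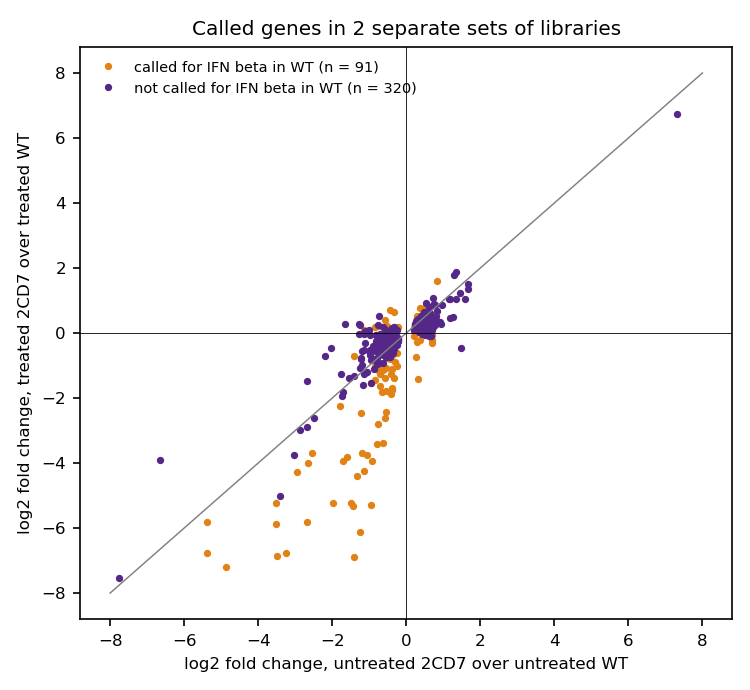
Each point is 1 of the 411 genes called between untreated 2CD7 and untreated WT, with its log2 fold change of 2CD7 over WT in untreated libraries (x axis) and in libraries treated with IFN beta (y axis). Purple points (n = 320) were not called for IFN beta in WT, and 303 of them had the same sign in both, with a median ratio of 0.78. Orange points (n = 91) were called for IFN beta in WT and lie on both sides of the diagonal.

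By position in the genome, 26 of the 403 tested genes of chromosome 14 rose (6.45%) and 2 fell (0.496%). Over all tested genes 1.45% rose and 2.06% fell. Chromosome 14 genes with an average log2 CPM above 4 had a median log2 fold change of 0.11. Gnl3, Lgals3 (0.38 ± 0.06), Bora (0.82 ± 0.23) and Rpph1 are named genes on chromosome 14, and Irf9, which fell, lies there too. The Bora call was lost without 2CD7 library 2 or 3 or WT library 2 or 3. On chromosome 1, 29 of 685 genes fell (4.23%) and 1 rose, with a median of -0.09. The interferon-inducible genes Sp100, Mndal and Ifi203 are among the chromosome 1 genes that fell. On chromosome 6, 24 of 553 fell (4.34%) and 10 rose (1.81%, near the share of all genes). The chromosome 6 median was -0.04, and it ran from -0.03 to 0.0026 with 1 library left out. These are descriptions without a test, and gene positions are those of GENCODE M21 on GRCm38.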

How the data were processed

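RNA (20 ng a library) was counted by 3′ tags with unique molecular identifiers. The authors deposited raw UMI counts per Ensembl gene in 1 table. The submitters' processing notes name cutadapt 3.0, R 3.6.2 and 4.1.2, edgeR 3.36.0, limma 3.50.0 and the build GRCm38, without roles. No aligner or counter is named in the sources used here. Gene names and positions came from GENCODE M21, which matched 24538 of 24614 IDs, and 8 tested genes stayed unmatched.

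Counts were analysed in R 4.3.3 with edgeR 4.0.16: filterByExpr (minimum count 10, total 15), TMM scaling, 1 fit of 8 group means over 24 libraries (16 residual degrees of freedom), the robust quasi-likelihood F test and Benjamini-Hochberg adjustment over all 11698 genes, with calls at an adjusted p below 0.05. SE is the absolute log2 fold change over the root of F. CPM used library totals. Totals of 1972192 to 2908144 UMIs limit the precision of low genes, and intervals and floors (3 UMIs over a group, exact 95% intervals) cover counting error only. Alternatives were DESeq2 1.42.0, limma-voom (limma 3.58.1), other scaling, no filter, a 6-library fit, a replicate block, thinning and leaving out each library. The method was tested on simulated data.

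The members and gene lists were chosen with earlier results of these data known. Named genes are, per direction, the 15 called genes of largest change (average log2 CPM of at least 2, groups apart, unnamed genes and pseudogenes left out) and the 10 of smallest adjusted p not already named, up to 4 called members of each list, genes of at least 30 UMIs in 1 line and 0 to 3 in the other, and Ifnar1, Ifnar2, Trp53 and Brca2. Promoter sequences are from RefSeq on GRCm38.p6.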

Additional observations from a re-analysis of the deposited data

Results flagged for a closer look

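For 17 of the 115 named genes the difference between 2CD7 and WT changed with IFN beta by edgeR's test of that change, and all 17 were also called for IFN beta in WT. Within 2CD7 itself, edgeR called 0 genes between treated and untreated libraries, against 801 within WT. Values are log2 differences, 2CD7 minus WT in treated libraries minus the same in untreated libraries. The Ifi200 genes Ifi203 and Mndal had -5.47 and -3.91, the GTPase gene Gbp2 -4.87, the RNA sensor gene Ifih1 -3.73 and Apol9a -3.13. The checkpoint ligand genes Lgals9 and Cd47 had -1.90 and -0.77, the chemokine gene Ccl2 -1.75 and the signalling gene Stat3 -1.38. The class I genes B2m and H2-T23 had -1.06 and -0.94. Outside interferon lists, the keratin gene Krt18 had -0.99, Myc -0.90, Id1 -0.74 and Ccnd2 -0.57, all 4 of which were higher in untreated 2CD7. Krt18 had a log2 fold change of 2CD7 over WT of -0.73 ± 0.06 in treated and 0.26 ± 0.06 in untreated libraries, and Myc of -0.21 ± 0.12 treated and 0.69 ± 0.12 untreated. The change was positive for 2 genes, Hmgcs1 (0.60) and Mmp11 (0.97), both lower in untreated 2CD7.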

How the results depend on the processing

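Of 111 named genes called by edgeR, 50 were called in every setting that tested them: Pbp2, Atp6v0e2, Fosl1, Pcolce2, Slfn2, Ggh, Rorb, Sp100, Apol9a, Fkbp11, Zfp618, Irf9, Ifi27l2a, Cacna2d2, Ifih1, Myc, Amotl2, Aldh1a1, Upk1b, Id1, Id2, Dcn, Col1a1, Thbs1, Fgfr1, Ccnd1, Ccnd2, Hmgcs1, Me1, Hmga1, Hmga1b, Gucy2c, Gnl3, Lgals3, Snora73b, Rassf1, Srm, Jmjd6, Dkc1, Eif6, Ifi27, Spp1, Xist, Soat1, Emb, Echdc2, Ldhb, Fam180a, Prss35 and Bhlhb9. Not every setting tested every gene. Of the 115 named genes, DESeq2 gave an adjusted p for 75, a filter with a minimum count of 30 for 103 and the 6-library fit for 108. Rorb and Bhlhb9, for example, were tested in 11 settings and Col1a1 in 14. Every other called named gene lost its call in at least 1 setting, and all of these but Lgals9 and Dhrs3 did so when 1 library was left out. DESeq2 called 128 genes lower in untreated 2CD7, 433 higher in treated 2CD7, 439 lower than in 1CF10 and 103 of the untreated genes in the same direction after treatment. A fit of the 6 compared libraries alone called 314 higher and 313 lower, and thinning to 1972192 UMIs called 132 and 162. Leaving out 1 library at a time gave 67 to 198 genes higher and 96 to 218 lower in untreated 2CD7. For treated 2CD7 the ranges were 401 to 637 higher and 748 to 930 lower, against EV 334 to 435 and 383 to 491, and against 1CF10 709 to 764 and 425 to 517. The lowest of these, 425 against 666 with all libraries, was found without untreated 2CD7 library 2. The genes found again after treatment ranged from 82 to 192, the called members of the 4 interferon lists from 13 to 34, and the genes of the interferon response in EV from 24 to 58. The log2 fold change of Trp53 was below 0 with limma-voom (-0.0064), with thinning (-0.11) and without 2CD7 library 2 or 3, ranging from -0.076 to 0.20 with 1 library left out, and that of Brca2 ranged from -0.29 to 0.010, the last without WT library 3. With the replicate number as a block, 196 genes were higher and 276 lower, but same-numbered libraries of 2CD7 and WT did not deviate together (r = 0.000225, -0.0289 and 0.0375), so the numbers were not taken to pair them. The causes of these shifts were not tested. Genes of few UMIs are limited by depth, and 1 clone, 1 date and technical replicates limit all results.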
